A study of Caenorhabditis elegans with 12 samples.

Results

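Histone genes were taken as every identifier in the deposited table whose gene symbol begins with his-. The rule used no expression value and returned 71 of 46217 gene identifiers. Histones are the small basic proteins around which DNA is wrapped: pairs of H2A, H2B, H3 and H4 form the nucleosome core, and linker histone H1 binds the DNA between nucleosomes. The bulk of core histone mRNA in animals is made during S phase from intronless, repeated genes, and these mRNAs end in a stem-loop in place of a poly(A) tail. Replacement variants such as H3.3 are incorporated outside replication as well, and their genes carry introns and give polyadenylated mRNAs. In the adult C. elegans hermaphrodite's own tissues, embryos inside it aside, cell division is confined to the germ line. The germ line is also the tissue that loads oocytes with maternal mRNA.

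The series holds 12 RNA sequencing samples of whole day 1 adult hermaphrodites kept at 20 °C, 3 each of 4 strains. The rde-1(ne219); cpl-1* strain, called the double strain from here on, carries the rde-1(ne219) allele and the transgene hhIs113, in which Pnhx-2 drives cpl-1W32AY35A fused to YFP, together with a Pmyo-2::mCherry marker. The cpl-1* strain is labelled hhIs113[Pnhx-2::cpl-1W32AW35A::gfp]I, and the wild type is N2, a DR subclone of the CB original, without a transgene. CPL-1* is a form of the lysosomal cathepsin CPL-1 that misfolds in the ER, the nhx-2 promoter expresses it in the intestine, and RDE-1 is the Argonaute of the exogenous RNAi pathway. Each cpl-1* strain is a single line, and under the same transgene name their genotype labels differ in a substitution and in the fluorescent tag. The fourth strain, expressing wild-type cpl-1, was not used here. For each gene the authors' table gives 1 FPKM (fragments per kilobase of transcript, scaled to the number of mapped fragments) per strain, pooled over its samples. There are therefore no replicate values, no spread between replicates and no test for any difference below, and sequencing depth is unknown. The gene rde-1 had 19.3 FPKM in the double strain, 27.97 FPKM in cpl-1* and 28.3 FPKM in wild-type worms. A mutant allele that leaves its transcript in place need not alter this level, so it does not check the genotype. The gene cpl-1 had 9749 FPKM in the double strain, 2920 FPKM in cpl-1* and 1377 FPKM in wild-type worms.

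By class, the 71 genes comprise 1 linker histone, 17 H2A, 15 H2B, 15 H3, 5 H3.3-like and 16 H4 genes, with his-39 and his-73 assigned to no class. The classes come from gene knowledge rather than from the files, and the annotated coding length fits the class in 64 of the 68 core and H3.3-like genes. Of all 71, 42 were above 0 FPKM in each of the 3 strains, 9 were listed at 0 in 1 or 2 strains and 20 were listed at 0 in all of them. These 20, of which 7 were H2A, 5 H2B, 3 H3 and 4 H4 genes and 1 was his-39, are the only genes that repeat each other's values. None of the 51 genes with a value above 0 shared its set of 3 values with another histone gene. A filter was set at a mean of at least 1 FPKM over the 3 strains, which 24 histone genes passed. Of the 47 that did not, the 27 above 0 reached at most 1.89 FPKM in any strain. The genes nearest to the filter were his-66 (mean 1.20 FPKM) and his-6 (1.36 FPKM) inside it, and his-5 (0.988 FPKM) and his-73 (0.975 FPKM) outside it. A gene can pass through the strain in which it is high, so the 24 do not stand for all histone genes.

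The level of a histone gene went with its annotated structure. In the Ensembl release 115 annotation of WBcel235, 7 histone genes have more than 1 exon and an annotated untranslated region, and the other 64 have a single exon and none. The 6 genes with the highest mean, his-72, his-74, his-24, his-37, his-35 and his-71, are all among those 7, and the exception is his-57, with a mean of 0.194 FPKM. Together the 6 accounted for 90.3% of the summed histone FPKM in the double strain, 88.1% in cpl-1* and 90.4% in wild-type worms. The next highest gene, the single-exon H2A gene his-68, had a mean of 30.5 FPKM. How mRNA was selected for sequencing, with poly(A) tails or otherwise, is not given in the sources used here, and its part in the low levels of the single-exon genes was not tested.

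A further division was by gene symbol. In release 115, 36 of the 71 identifiers carry a gene symbol that another of them carries too, under 14 such symbols. Of these 36 only his-66 passed the filter and 18 were listed at 0 in every strain. Of the 35 with a symbol of their own, 23 passed and only his-16 and his-39 were listed at 0 throughout. Histone genes of a class are near-identical copies, and reads from copies can be split between them or left out by the authors' counting, so a listed 0 is not shown to be an absence of mRNA. By chromosome, 10 of 22 histone genes passed on IV, 6 of 26 on V, 4 of 4 on X, 2 of 3 on III, 2 of 2 on I and 0 of 14 on II, where 8 were listed at 0 throughout.

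**Figure D1:**
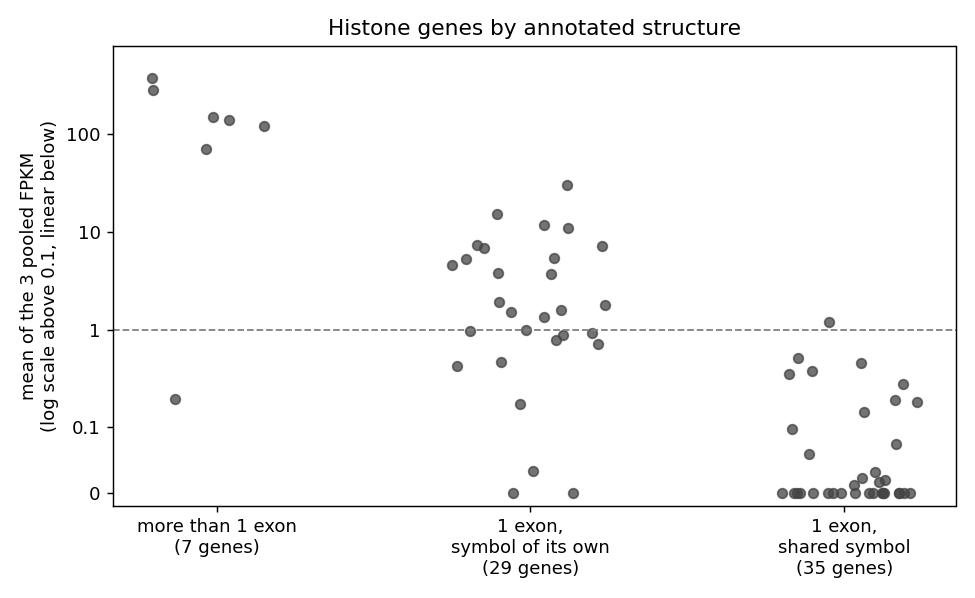
Mean of the 3 pooled FPKM of each of the 71 histone genes, 1 point per gene, on an axis that is logarithmic above 0.1 and linear below. Genes are grouped by annotated exons and by whether their release 115 symbol is shared; points are spread sideways only for visibility. The dashed line is the filter of 1 FPKM: 6 of 7 genes with more than 1 exon lie far above it, and all but 1 of the genes with a shared symbol lie below it.

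Summed over all 71 genes, histone FPKM came to 1079 in the double strain, 1237 in cpl-1* and 1498 in wild-type worms. The single-exon genes alone summed to 104 FPKM in the double strain, 147 FPKM in cpl-1* and 143 FPKM in wild-type worms. The summed FPKM of single-exon genes thus differed little between cpl-1* and wild type and was lower in the double strain. In bulk RNA of whole worms, fewer cells of a type and less RNA per cell cannot be told apart.

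**Figure D2:**
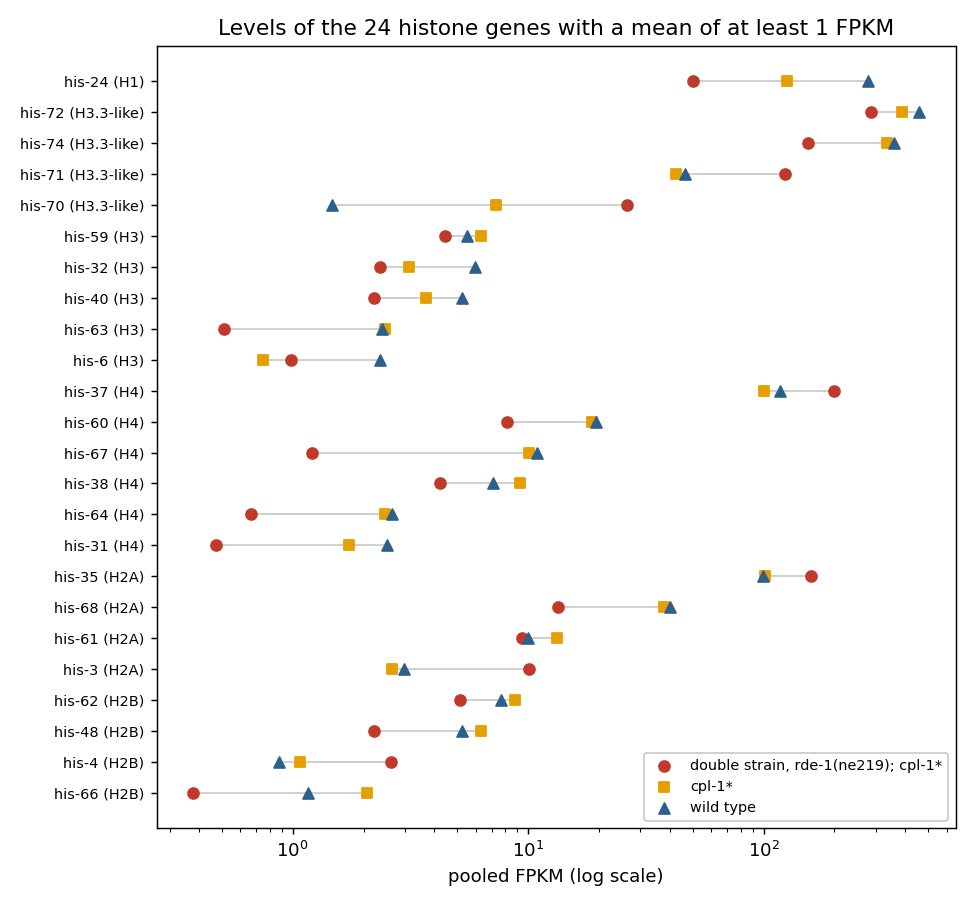
Pooled FPKM of the 24 histone genes with a mean of at least 1 FPKM, on a logarithmic axis, ordered by class and then by mean. Circles are the double strain, squares cpl-1* and triangles wild type, with 1 pooled value each and no error bars; for his-71, his-67 and his-3, among others, the circle lies apart from a close square and triangle, while his-24 and his-70 are spread over all 3 strains.

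Differences are given as log2 ratios of FPKM with 0.1 FPKM added to both values, and a gene is called higher or lower at 2-fold or more. In cpl-1* against wild type, which asks what the misfolding transgene goes with, 1 of the 24 genes was called higher and 2 were called lower. Over all 14890 genes that passed the filter, 15.5% were called higher and 1.97% lower. The median log2 ratio was -0.09 over the histone genes and -0.03 over all genes. The levels of 21 histone genes were thus within 2-fold between these strains, and the 3 others each belong to a different class.

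The gene called higher in cpl-1* was his-70, an H3.3-like gene (WBGene00001944) with a single exon on chromosome III from 4059715 to 4060119 on the minus strand. Its level was 7.31 FPKM in cpl-1* and 1.47 FPKM in wild-type worms, a log2 ratio of 2.23. The genes called lower were the H3 gene his-6, at 0.749 FPKM in cpl-1* and 2.34 FPKM in wild type (log2 ratio -1.52), and the linker histone gene his-24. The level of his-6 lies near the filter, and with 1 FPKM added to both values its log2 ratio was -0.93.

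The linker histone gene his-24 (WBGene00001898), which encodes an H1 protein, lies on chromosome X from 14490094 to 14491119 on the plus strand and has 2 exons. It had 50.2 FPKM in the double strain, 126 FPKM in cpl-1* and 277 FPKM in wild-type worms. The log2 ratio was -1.14 in cpl-1* against wild type and -1.32 in the double strain against cpl-1*. Both comparisons use the cpl-1* value. The other linker histone genes carry hil- names and were looked at beside it. Over all genes that passed the filter, 53.5% lay below 0 in cpl-1* against wild type and 1.97% were called lower. Of the hil- genes, 6 passed the filter, and all 6 had log2 ratios below 0 in that comparison. Among them only hil-1 was called lower, at 4.31 FPKM in cpl-1* and 15.3 FPKM in wild type, a log2 ratio of -1.80. In the double strain hil-1 had 4.35 FPKM, against 4.31 FPKM in cpl-1* (log2 ratio 0.01). By contrast hil-4 had 152 FPKM in the double strain, 381.3 FPKM in cpl-1* and 404 FPKM in wild type. The log2 ratios of hil-4 were -0.08 in cpl-1* against wild type and -1.33 in the double strain against cpl-1*. In the same order, those of hil-7 were -0.04 and -1.55. Like his-24, hil-2 (-0.71 and -0.53), hil-3 (-0.79 and -0.79) and hil-5 (-0.39 and -0.66) were lower in both comparisons, though without a call.

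In the double strain against cpl-1*, which asks what loss of RDE-1 goes with under CPL-1* expression, more histone genes differed by 2-fold. These strains also differed in the level of cpl-1 itself, with a log2 ratio of 1.74. Of the 24, 4 were called higher and 11 lower, while 24.2% of all genes that passed the filter were called higher and 13.8% lower. The median log2 ratio of the histone genes was -0.74, against 0.09 for all genes. Of the histone genes 17 lay below 0, and of all genes 47.1% did. The genes called higher were his-3, his-4, his-70 and his-71. Those called lower were his-24, his-74, the H4 genes his-31, his-38, his-60, his-64 and his-67, the H3 gene his-63, the H2A gene his-68 and the H2B genes his-48 and his-66.

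**Figure D3:**
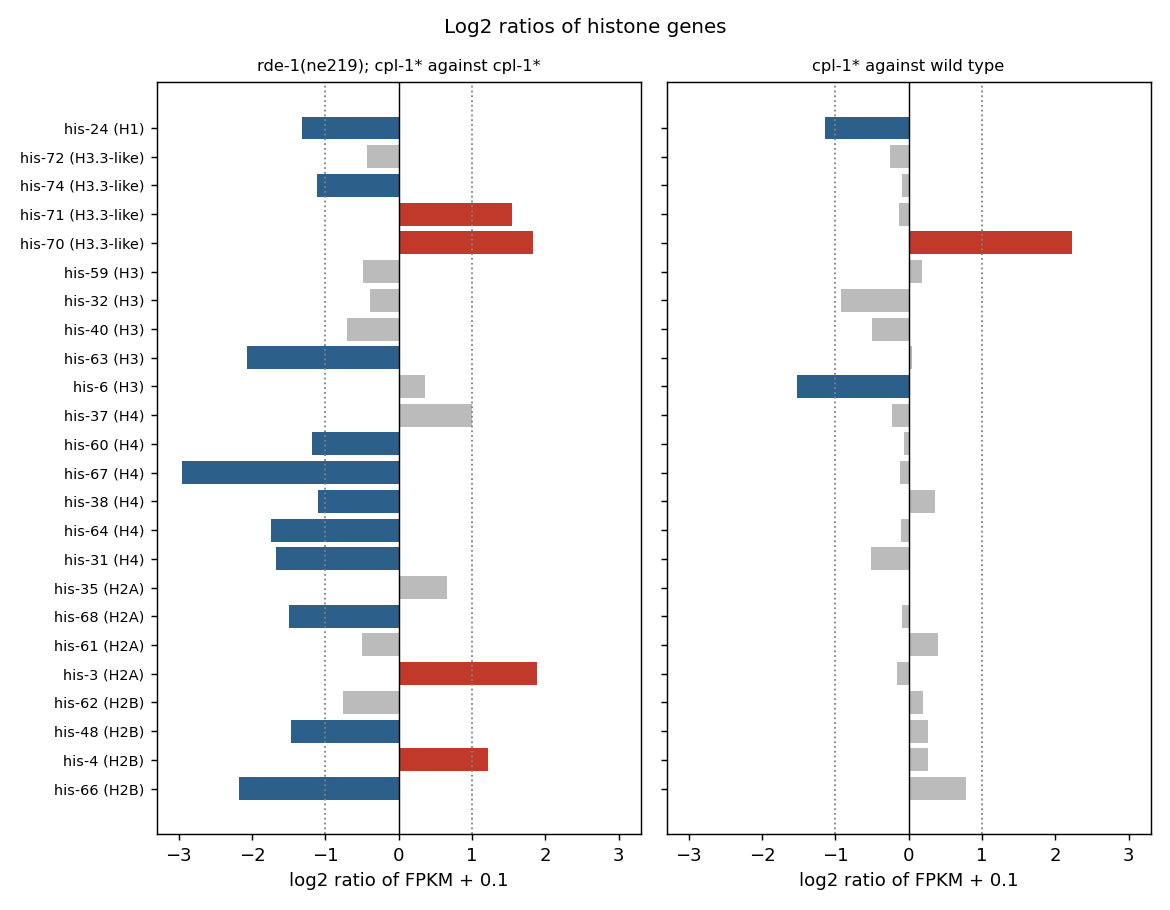
Log2 ratios of FPKM with 0.1 added, for the 24 histone genes in the double strain against cpl-1* (left) and in cpl-1* against wild type (right), from pooled values without error. Red and blue bars are genes called higher and lower at 2-fold (dotted lines), grey bars are genes within it; 15 genes are called on the left and 3 on the right. The cpl-1* value enters both panels, so the panels are not independent.

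The H3.3-like genes differed in both directions. The gene his-71 (WBGene00001945), on chromosome X from 7981382 to 7982070 on the minus strand, encodes H3.3. It had 124 FPKM in the double strain, 42.3 FPKM in cpl-1* and 46.3 FPKM in wild-type worms. Its log2 ratio was 1.55 in the double strain against cpl-1* and -0.13 in cpl-1* against wild type. The gene his-72 (WBGene00001946), on chromosome III from 12367475 to 12369050 on the minus strand, also encodes H3.3 and had the highest FPKM of the his- genes in each strain. It had 286 FPKM in the double strain, 386 FPKM in cpl-1* and 458 FPKM in wild type, with log2 ratios of -0.43 in the double strain against cpl-1* and -0.25 in cpl-1* against wild type, neither of them called.

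The gene his-74 (WBGene00012276), an H3.3-like gene on the minus strand of chromosome V from 12659704 to 12660330, differed in the opposite direction to his-71. It had 155 FPKM in the double strain, 334 FPKM in cpl-1* and 357 FPKM in wild type. Its log2 ratio in the double strain against cpl-1* was -1.11. The makeup of the summed FPKM of these genes differed accordingly. Of the sum of his-71, his-72 and his-74, his-71 made up 21.9% in the double strain, 5.55% in cpl-1* and 5.38% in wild type. The share of his-74 was 27.4% in the double strain, 43.8% in cpl-1* and 41.4% in wild type. The share of his-72 was 50.7% in the double strain, 50.6% in cpl-1* and 53.2% in wild type. The sum itself was 565 FPKM in the double strain, 763 FPKM in cpl-1* and 862 FPKM in wild type. The coding sequences of these genes are alike, so reads may be shared between them.

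The level of his-70 followed another order. It had 26.3 FPKM in the double strain, above the 7.31 FPKM of cpl-1*, for a log2 ratio of 1.83, so it was called higher here as in cpl-1* against wild type. The last H3.3-like gene, his-69, lies near his-70 on chromosome III from 4058360 to 4058743. It was below the filter, at 0.154 FPKM in the double strain, 0.321 FPKM in cpl-1* and 0.0412 FPKM in wild type. Outside the his- names, htas-1, which encodes a sperm H2A variant, had a log2 ratio of 1.12 in the double strain against cpl-1* and of 1.42 in cpl-1* against wild type. It had 47.5 FPKM in the double strain, 21.8 FPKM in cpl-1* and 8.04 FPKM in wild type.

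The intron-containing H2A and H4 genes that passed the filter, his-35 and his-37, lie within a few kilobases of each other on chromosome V. Both were more abundant in the double strain without being called. The H2A gene his-35 (WBGene00001909, 9544659 to 9545288, minus strand) had 159 FPKM in the double strain, 101 FPKM in cpl-1* and 99.6 FPKM in wild type. Its log2 ratio in the double strain against cpl-1* was 0.65. The H4 gene his-37 (WBGene00001911, 9547105 to 9547607, plus strand) had 199.9 FPKM in the double strain, 100.4 FPKM in cpl-1* and 117 FPKM in wild type. Its log2 ratio of 0.99 lies just short of the call, which it passes once the FPKM of each strain are rescaled to the same sum. The locus of his-37 in the table also covers nstp-10, which has values of its own.

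The single-exon core genes were mostly lower in the double strain. Of the 60 such H2A, H2B, H3 and H4 genes 17 passed the filter. Of these, 14 had log2 ratios below 0 against cpl-1*, with 9 called lower and 2 called higher. Over all genes that passed the filter 47.1% lay below 0, 13.8% were called lower and 24.2% higher. The summed FPKM of the 17 was 68.4 in the double strain, 130 in cpl-1* and 132 in wild-type worms. In cpl-1* against wild type, 1 of the same 17, his-6, was called lower and 0 were called higher. Over all genes the shares there were 1.97% lower and 15.5% higher.

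The H4 genes with a single exon that passed the filter all lay below 0 in the double strain against cpl-1*. All 5 were called lower, beside 13.8% of all genes. Below the filter single-exon H4 genes went both ways, as his-5 (log2 ratio 1.72) and his-1 (-1.59) show. All 15 single-exon H4 genes, those below the filter included, summed to 18.4 FPKM in the double strain, 45.1 FPKM in cpl-1* and 45.5 FPKM in wild type. The intron-containing H4 gene his-37 lay above 0. The lowest ratio was that of his-67, at 1.20 FPKM in the double strain, 10.1 FPKM in cpl-1* and 10.9 FPKM in wild type (log2 ratio -2.96 against cpl-1*). The most abundant of them, his-60, had 8.13 FPKM in the double strain, 18.6 FPKM in cpl-1* and 19.5 FPKM in wild type (log2 ratio -1.19). The gene his-38 had 4.24 FPKM in the double strain, 9.20 FPKM in cpl-1* and 7.11 FPKM in wild type (log2 ratio -1.10). The gene his-31 had 0.472 FPKM in the double strain, 1.73 FPKM in cpl-1* and 2.52 FPKM in wild type (log2 ratio -1.68). The gene his-64 had 0.667 FPKM in the double strain, 2.46 FPKM in cpl-1* and 2.65 FPKM in wild type (log2 ratio -1.74). With 1 FPKM added in place of 0.1 FPKM, his-31 (-0.89) and his-38 (-0.96) were no longer called.

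Single-exon H3 genes were low and mixed in size. The lowest ratio was that of his-63, at 0.512 FPKM in the double strain, 2.47 FPKM in cpl-1* and 2.39 FPKM in wild type (log2 ratio -2.07 against cpl-1*). The gene with the highest mean over the strains, his-59, had 4.44 FPKM in the double strain, 6.29 FPKM in cpl-1* and 5.52 FPKM in wild type (log2 ratio -0.49 against cpl-1*). The gene his-32 had 2.35 FPKM in the double strain, 3.11 FPKM in cpl-1* and 5.95 FPKM in wild type (log2 ratio -0.39). The gene his-40 had 2.22 FPKM in the double strain, 3.69 FPKM in cpl-1* and 5.23 FPKM in wild type (log2 ratio -0.71). Of the 5 that passed only his-6, at 0.985 FPKM in the double strain and 0.749 FPKM in cpl-1* (log2 ratio 0.35), lay above 0.

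Among the H2A genes, his-68 had 13.4 FPKM in the double strain, 37.9 FPKM in cpl-1* and 40.1 FPKM in wild type, a log2 ratio of -1.49 against cpl-1*. The H2A gene his-61 had 9.38 FPKM in the double strain, 13.3 FPKM in cpl-1* and 10.04 FPKM in wild type, with no call. The H2B gene his-62 had 5.14 FPKM in the double strain, 8.81 FPKM in cpl-1* and 7.68 FPKM in wild type, also with no call. Both H2B genes called lower were small in level: his-66 had 0.378 FPKM in the double strain, 2.07 FPKM in cpl-1* and 1.16 FPKM in wild type, and his-48 had 2.21 FPKM in the double strain, 6.30 FPKM in cpl-1* and 5.23 FPKM in wild type. Their log2 ratios were -2.18 for his-66 and -1.47 for his-48.

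Among the single-exon core genes that passed the filter, those called higher were the H2A gene his-3 and the H2B gene his-4. These 2 genes lie side by side on chromosome V between 16040144 and 16041191 and are transcribed away from each other. The gene his-3 had 10.1 FPKM in the double strain, 2.65 FPKM in cpl-1* and 2.97 FPKM in wild type, a log2 ratio of 1.88 against cpl-1*. The gene his-4 had 2.62 FPKM in the double strain, 1.07 FPKM in cpl-1* and 0.874 FPKM in wild type, a log2 ratio of 1.22. With 1 FPKM added to both values the log2 ratio of his-4 was 0.81 and the call ended. Their nearest histone neighbours, the H3 gene his-2 and the H4 gene his-1, end at 16042831. Both were below the filter and differed the other way. The level of his-2 was 0.161 FPKM in the double strain and 0.677 FPKM in cpl-1*. That of his-1 was 0.259 FPKM in the double strain and 0.977 FPKM in cpl-1*. Also below the filter, the chromosome V gene his-5 was higher, at 1.89 FPKM in the double strain and 0.503 FPKM in cpl-1*. With no filter 7 of all 71 histone genes were called higher and 15 lower.

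Such head-to-head arrangement is the rule for these genes: 60 of the 71 form 30 divergent pairs whose annotated ends lie 227 to 368 bases apart. Of the pairs 15 join H2A with H2B and 14 join H3 with H4, and the remaining pair is his-67 (H4) with his-68 (H2A). Both genes passed the filter in 7 pairs, 1 gene did in 3 and neither did in 20. In the double strain against cpl-1*, the partners had log2 ratios of the same sign in 7 of the 7 pairs, and differed by 0.26 to 1.47. Among the genes of these pairs only his-3 and his-4 lay above 0, so other pairings would also give mostly shared signs. The count therefore does not show that partners go together. In cpl-1* against wild type, where most ratios were small, 3 of the 7 pairs had the same sign. No sequence of the intervals between partners was read here.

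**Figure D4:**
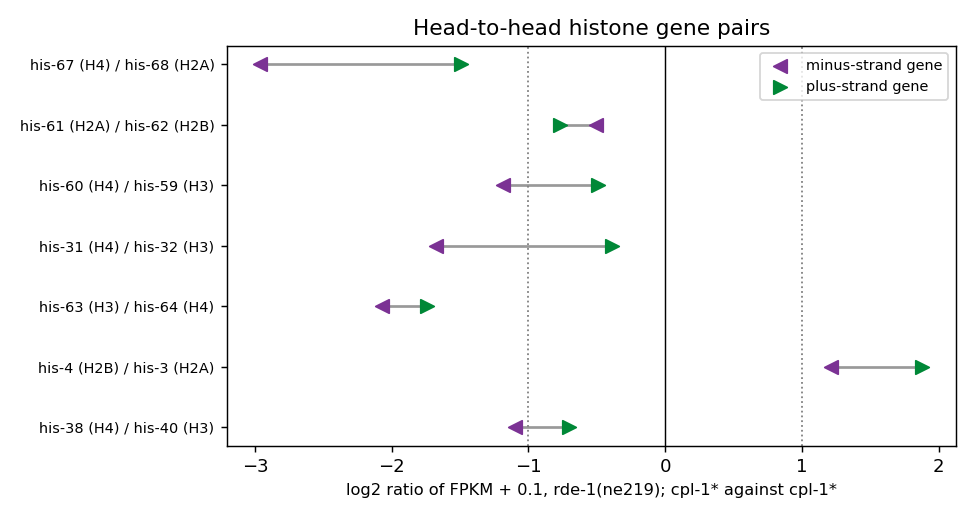
Log2 ratios of FPKM with 0.1 added in the double strain against cpl-1* for the 7 head-to-head pairs in which both genes passed the filter. Left-pointing triangles are the minus-strand gene and right-pointing triangles the plus-strand gene of a pair, joined by a line, with dotted lines at 2-fold; 6 pairs lie wholly below 0, and his-4 with his-3 lies wholly above it.

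Set against wild type, the double strain had 4 histone genes called higher and 13 called lower, beside 29.7% of all genes called higher and 17.8% called lower. It uses the same pooled values as the comparisons above and adds no independent measurement. The log2 ratios furthest from 0 were 4.07 for his-70 and -3.08 for his-67, and his-24 had -2.46. The genes called lower here but not against cpl-1* were his-6 (log2 ratio -1.17), his-32 (-1.30) and his-40 (-1.20), and his-38 (-0.73) was called lower only against cpl-1*. With 1 FPKM added in place of 0.1 FPKM, 3 were called higher and 9 lower, and his-6 (-0.75) and his-40 (-0.95) were no longer called.

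Genes that act with histones were then examined by lists. Among 13 genes of histone mRNA processing and histone chaperones, 8 were called lower and 0 higher in the double strain against cpl-1*. Their median log2 ratio was -1.07. For all genes that passed the filter the shares were 13.8% lower and 24.2% higher. The gene cdl-1 encodes the stem-loop binding protein that histone mRNAs need for their maturation and translation. It had 69.5 FPKM in the double strain, 174 FPKM in cpl-1* and 204 FPKM in wild type. The Argonaute gene csr-1, which acts in the maturation of these mRNAs among other roles, had 111 FPKM in the double strain, 177 FPKM in cpl-1* and 174 FPKM in wild type, and was not called. In cpl-1* against wild type 0 of the 13 were called in either direction. Over all genes that passed the filter, 15.5% were called higher and 1.97% lower in that comparison.

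Variant histones outside the his- names were in part lower as well. Of 10 linker and variant genes that passed the filter, 4 were called lower and 1 higher in the double strain against cpl-1*. The shares over all genes were 13.8% lower and 24.2% higher. The median log2 ratio of the 10 was -0.86. The H2A.Z gene htz-1 had 322 FPKM in the double strain, 615 FPKM in cpl-1* and 705 FPKM in wild type, just short of the call. The centromeric H3 gene hcp-3 had 47.2 FPKM in the double strain, 109 FPKM in cpl-1* and 120.4 FPKM in wild type (log2 ratio -1.20 against cpl-1*). Its relative cpar-1 had the lowest ratio of the list, with 19.8 FPKM in the double strain, 80.9 FPKM in cpl-1* and 85.5 FPKM in wild type.

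Markers of replication, germ line and stage were examined too. Of all genes that passed the filter, 24.2% were called higher and 13.8% lower in the double strain against cpl-1*. Of 14 DNA replication genes 13 were called lower and 0 higher in the double strain against cpl-1*, with a median log2 ratio of -1.53, and the ribonucleotide reductase gene rnr-2 had 117 FPKM in the double strain, 448 FPKM in cpl-1* and 506 FPKM in wild type. Of 9 germ line genes 4 were called lower (median -0.74), as were 9 of 9 oocyte and eggshell genes (median -2.14) and 6 of 6 vitellogenin genes (median -4.34). Of 7 larval hypodermis and molting genes 7 were called higher, with a median of 2.96. This list includes rol-6 and sqt-1, whose mRNAs the paper reports to undergo turnover that depends on RDE-1 in cpl-1* worms. Of 5 sperm genes 1 was called higher (median 0.79), which is near the share of all genes. In cpl-1* against wild type 0 genes of the replication, germ line, oocyte and vitellogenin lists were called. There 5 of 7 molting genes and 4 of 5 sperm genes were called higher, with medians of 3.12 and 1.35, beside 15.5% of all genes. The share of all genes called lower there was 1.97%. The summed FPKM of the replication list was 746 in the double strain, 2235 in cpl-1* and 2542 in wild type. That of the oocyte and eggshell list was 1101 in the double strain, 4855 in cpl-1* and 4984 in wild type. The sperm list summed to 709.7 FPKM in the double strain, 447 FPKM in cpl-1* and 177 FPKM in wild type, and the molting list to 947 FPKM in the double strain, 118 FPKM in cpl-1* and 14.9 FPKM in wild type. No member of these lists was listed at 0 in any strain. The part of these cell types and stages in the histone levels was not tested.

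**Figure D5:**
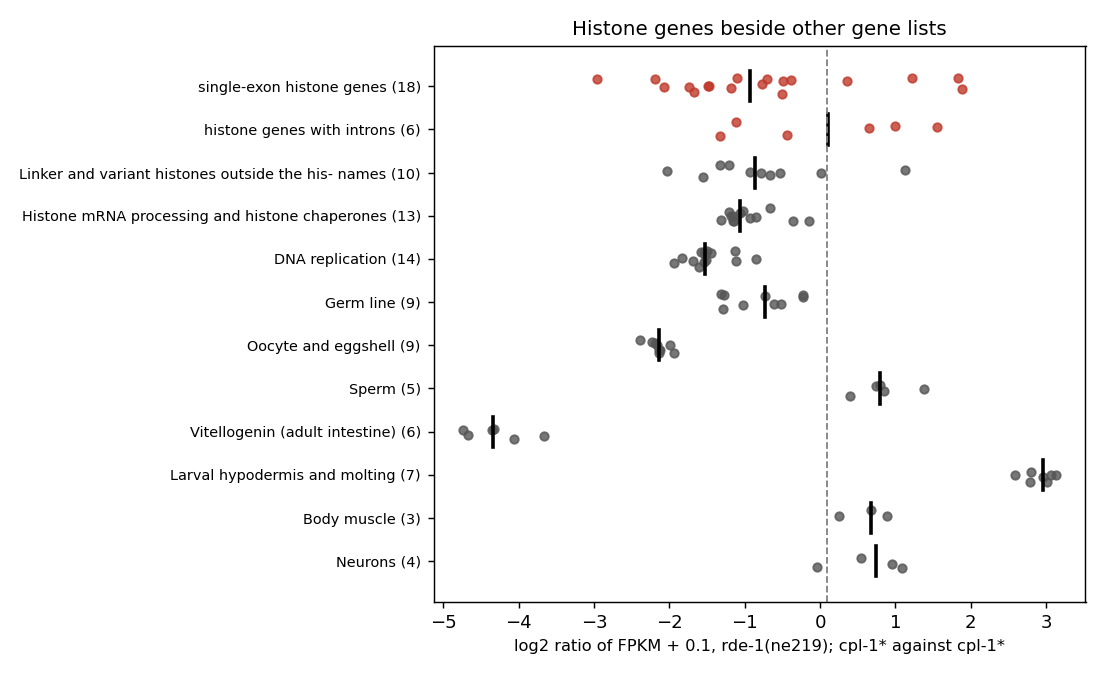
Log2 ratios of FPKM with 0.1 added in the double strain against cpl-1* for the 24 histone genes that passed the filter, split by introns (red, upper rows), and for the members of 10 other gene lists (grey). Each point is a gene, the number of genes is in brackets, black bars are medians and the dashed line is the median of all genes (0.09); points are spread up and down only for visibility. Of the 18 single-exon histone genes 14 lie below 0, while the 6 with introns lie on both sides of it.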

How the data were processed

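Total RNA of 12 whole-worm samples, 3 for each of 4 strains, was isolated and sent for sequencing. How mRNA was selected from it is not given in the sources used here. Per the submitters' processing notes the authors used FastQC 0.11.7, HISAT2 2.1.0, StringTie 1.3.4d and Cuffdiff 2.2.1 with WBcel235, and the paper names the Ensembl release 91 transcriptome. The authors deposited FPKM values pooled per strain, 1 per gene for 3 strains. Their table also holds fold changes, test statistics, P values and q values, which were not used.

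Identifiers with a symbol beginning with his- were selected, a mean of at least 1 FPKM over the strains was required for ratios, 0.1 FPKM was added, and genes at 2-fold or more were called. The tests planned for replicate values could not be run, since pooled values leave no spread. The depth per sample is unknown. Named genes were every H1 and H3.3-like member, his-35, the 5 highest and 5 lowest ratios per comparison, the 3 most abundant members of each class, and list members where a list is described. Further genes outside this rule (his-1, his-2, his-5, his-16, his-39, his-57 and his-73) were named after their values were seen. Classes were assigned by hand. Genes and lists were chosen with earlier results of these data known. From the lists, hira-1, chs-1 and mlt-10 were not found, and identifiers of 1 symbol with the same values were counted as 1. Body muscle (3 genes) had 0 called in the double strain against cpl-1*. Neurons (4 genes) had 1 called higher, near the 24.2% of all genes called higher. Coordinates are from Ensembl release 115 (WBcel235), matched by identifier. Alternatives were pseudocounts of 1 FPKM and none, no filter or a mean of at least 5 FPKM, centring on the median of all genes, repeated values counted as 1, shared loci left out and a 1.5-fold call. The scripts, tested on simulated data, used pandas 2.3.3, numpy 2.4.6 and matplotlib 3.10.9 under Python 3.11.15.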

Additional observations from a re-analysis of the deposited data

How the results depend on the processing

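No paired analysis was possible because the deposited values are pooled per strain, and for the same reason no replicate could be left out. Under the alternatives no count or median changed direction. In cpl-1* against wild type, the number called lower was 2 and became 1 with a pseudocount of 1 FPKM, with a mean of at least 5 FPKM, with shared loci left out or without his-24, and 7 with no filter; the number called higher was 1 and became 4 with no filter and 2 at 1.5-fold. In the double strain against cpl-1*, the number called higher was 4 and became 7 with no filter, the median of -0.74 became 0 with no filter, where 20 genes are listed at 0, and the number called lower was 11 and became 6 of 15 with a mean of at least 5 FPKM. In the double strain against wild type, the median of -1.18 became 0 with no filter and -0.57 with a mean of at least 5 FPKM, and the number called lower was 13 and became 5 of 15 with that mean. Fewer genes were tested with a mean of at least 5 FPKM, but the share called lower fell as well. In the double strain against wild type it was 13 of 24 with the filter of 1 FPKM and 5 of 15 with that mean. In the double strain against cpl-1* it was 11 of 24 and 6 of 15. Rescaling the FPKM of each strain to the same sum and leaving out his-24 were chosen after seeing the data. A pseudocount of 1 ended the calls of his-4 (0.81), his-31 (-0.89) and his-38 (-0.96) in the double strain against cpl-1*, leaving 3 higher and 9 lower, and of his-4 (0.95), his-6 (-0.75), his-40 (-0.95), his-48 (-0.96) and his-66 (-0.65) in the double strain against wild type, leaving 3 higher and 9 lower. Levels of a few FPKM and below rest on an unknown number of reads.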

Other observations

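The length of the locus that the table gives a histone gene differed between genes with and without a value. Of the 20 histone genes listed at 0 in all 3 strains, 18 had a locus at most 5 bases longer than the annotated gene, against 3 of the 24 that passed the filter. The loci come from the authors' table and the gene lengths from Ensembl release 115, and the source of the longer loci was not tested. The authors assembled transcripts from the same reads, so locus length may not be independent of a gene's level. Of the 71 genes 11 share a locus with another identifier, 6 of which passed the filter, and none of their 17 partners repeats a histone gene's values above 0.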
